A study of Mus musculus with 2 samples.

Results

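miRNAs receive their numbers in the order in which they are registered, so a high number marks a late entry in the catalogue. The late-numbered miRNAs described here were the rows of the table of known mature mouse miRNAs whose number was 1000 or more, leaving out miR-1193, miR-3071 and miR-3107. There were 159 such rows among 717 miRNAs analysed. Of the others, 555 were numbered under 1000 or belonged to let-7, and 3 carried a left-out number. Many late-numbered miRNAs are thought to occur in rodents alone, which these mouse data could not test.

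Small RNA was compared between 1 library of tumor-associated macrophages (TAMs) and 1 library of spleen macrophages (SMs), both from BALB/c mice. TAMs came from tumors of 4T1, a mouse mammary carcinoma cell line grafted into mice of its own strain, and were sorted with magnetic beads against CD11b, an integrin of macrophages that is shared by monocytes, neutrophils and NK cells. SMs came from the spleen of naïve mice without tumor. No source used here states how many mice stood behind a library, and with 1 library per group no difference had a replicate check and no p-value was computed.

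A typical miRNA is cut out of a hairpin first by Drosha and then by Dicer, and 1 of the 2 arms of the hairpin (5p or 3p) is usually kept on an Argonaute protein. Bases 2 to 8 of the mature strand, the seed, are the main part that pairs with target mRNAs. Most entries added late come from deep sequencing, and some of them lie within other small RNAs: snoRNAs, which guide chemical modification of ribosomal RNA, and scaRNAs, which do the same for spliceosomal RNA in Cajal bodies. Others are mirtrons, short introns that splicing releases as a hairpin without Drosha.

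The sequences fall into sets that bear on how the counts are read. All were taken from the deposited table, and of the 159 rows 123 had an entry of the same name in RefSeq (GRCm38.p6), each with the identical sequence. The first set is shown because late-numbered miRNAs pair base for base with older ones. Capitals mark the stretch of each that is the reverse complement of the other, 20 bases for miR-3074-5p with miR-24-3p and 21 bases for miR-3065-5p with miR-338-3p.
miR-3074-5p: GTTCCTGCTGAACTGAGCCAgt
miR-24-3p: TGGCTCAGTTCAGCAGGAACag
miR-3065-5p: tCAACAAAATCACTGATGCTGG
miR-338-3p: tCCAGCATCAGTGATTTTGTTG

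The second set is shown because the members share most of their bases with one another on the same strand, so that 1 read can match both. Capitals mark the shared stretch, 20 bases for both the miR-1843 and the miR-3096 pair and 18 bases for the miR-3473 pair.
miR-1843a-5p: tATGGAGGTCTCTGTCTGACT
miR-1843b-5p: ATGGAGGTCTCTGTCTGACTt
miR-3096a-3p: tgggttAAAGGATTTACCTGAGGCCA
miR-3096b-3p: AAAGGATTTACCTGAGGCCA
miR-3473b: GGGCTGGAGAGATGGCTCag
miR-3473e: GGGCTGGAGAGATGGCTCgta

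The third set holds other members named in the comparison between TAMs and SMs, with the seed in capitals. Its first 5 lie within a snoRNA or scaRNA gene, and the remaining 6 do not. miR-6243, miR-5109 and miR-5105, which are described below, are not printed because no chromosome was found for them.
miR-1839-5p: aAGGTAGAtagaacaggtcttg
miR-1940: aTGGAGGActgagaaggtggagcagtt
miR-3068-5p: tTGGAGTTcatgcaagttctaacc
miR-3068-3p: gGTGAATTgcagtactccaaca
miR-5121: aGCTTGTGatgagacatctcc
miR-6240: cCAAAGCAtcgcgaaggcccacggcg
miR-1981-5p: gTAAAGGCtgggcttagacgtggc
miR-1943-5p: aAGGGAGGatctgggcacctgga
miR-5099: tTAGATCGatgtggtgctcc
miR-1198-5p: tATGTGTTcctggctggcttgg
miR-1249-3p: aCGCCCTTcccccccttcttca

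Late-numbered miRNAs took a small share of the reads. They held 40116 reads in TAMs, which was 0.547% of 7333652 miRNA reads (exact 95% interval 0.542% to 0.552%), against 41694 reads in SMs, 0.412% of 10108834 (0.409% to 0.416%). All intervals given here cover counting error only, and PCR copies are not independent molecules. In TPM, the count divided by 13324721 reads for TAMs and 15422872 reads for SMs and given per 1000000 reads, the members summed to 3011 in TAMs and 2703 in SMs, a ratio of 1.11 (1.10 to 1.13). Just 2 miRNAs, miR-3074-5p and miR-3065-5p, made up 59.0% of the late-numbered reads in TAMs and 54.0% in SMs. Without the 4 rows that lie opposite an older miRNA or match one as reverse complement, the share was 0.224% in TAMs and 0.189% in SMs. The ratio of the summed TPM was then 0.993 (0.973 to 1.01).

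Few of the 159 were abundant. At least 10 TPM was reached by 19 miRNAs in TAMs, by 20 in SMs, by 17 in both and by 22 in either, which is 13.8% of the rows, against 43.2% (240 of 555) of the miRNAs with lower numbers. At least 100 TPM was reached by 5 in TAMs and 5 in SMs, 2 of them in both, and at least 1000 TPM by miR-3074-5p alone. The 22 carried 95.8% of the late-numbered reads in TAMs and 94.9% in SMs. A further 41 peaked between 1 and 10 TPM, and 96 stayed under 1 TPM in both libraries, with 280 reads together in TAMs and 333 in SMs. The median member had 6 reads in each library, whereas the median lower-numbered miRNA had 60 in TAMs and 49 in SMs.

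Every row analysed had a read in at least 1 library, so only detection in each library could be compared. Of the 159 miRNAs, 135 (84.9%) had a read in TAMs and 136 (85.5%) in SMs, and 112 had a read in both. Of the 555 lower-numbered miRNAs, 93.3% had a read in TAMs and 89.0% in SMs, with 61 seen in TAMs only and 37 in SMs only. The 23 late-numbered miRNAs seen in TAMs only had at most 11 reads and the 24 seen in SMs only at most 9. No more than 3 reads in either library were found for 49 of the 159. miR-1231-5p had 11 reads (0.826 TPM) in TAMs and none in SMs, where 3 counts would be 0.195 TPM, and the exact 95% interval of its ratio began at 2.91. miR-3095-3p (5 reads) and miR-3077-5p (4 reads) followed in TAMs. miR-5709 had 0 reads in TAMs, where 3 counts would be 0.225 TPM, and 9 reads (0.584 TPM) in SMs, and the exact 95% interval of its ratio ended at 0.586. miR-3079-3p (8 reads) and miR-5619-5p (6 reads) came next among those seen in SMs only.

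**Figure D1:**
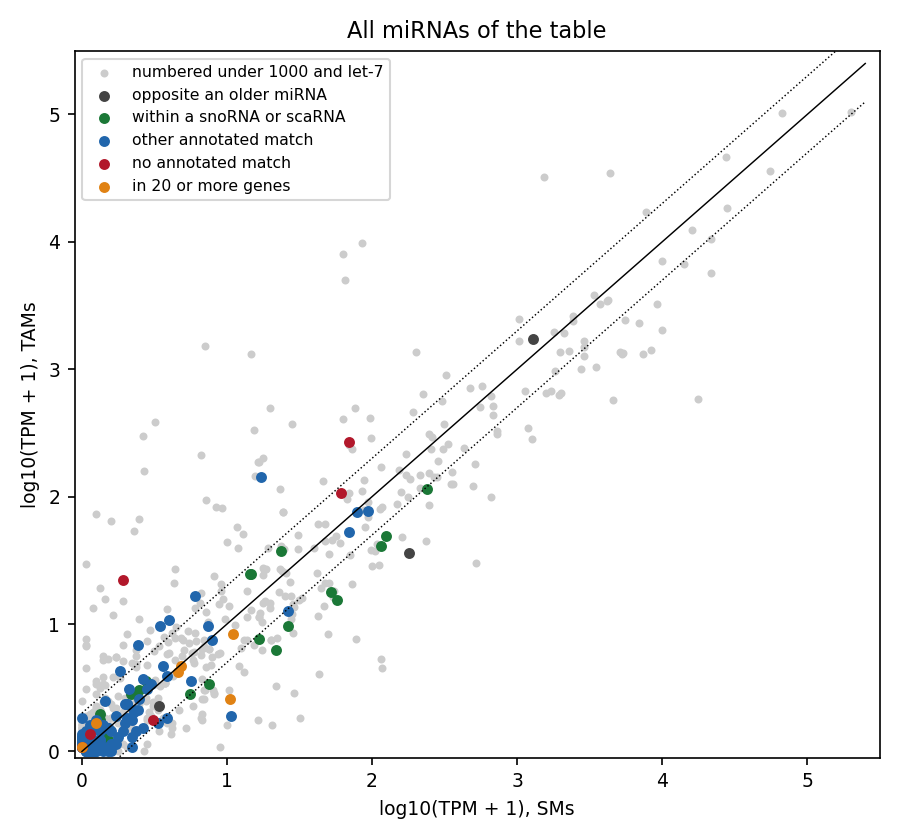
Level of each of the 717 miRNAs but the 3 left out, as log10(TPM + 1), in TAMs (vertical axis) and SMs (horizontal axis); the solid line marks equal levels and the dotted lines a 2-fold difference. Late-numbered miRNAs are colored by where their sequence lies, and all but 22 of the 159 sit below 10 TPM in both libraries.

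The sequences themselves differed from those of the older entries. Late-numbered miRNAs were 18 to 27 bases long, and 116 of the 159 (73.0%) had the usual 21 to 23 bases, against 516 of the 555 lower-numbered miRNAs (93.0%). Lengths of 24 bases or more occurred in 24 members (15.1%) and in 22 lower-numbered miRNAs (3.96%). The median GC content was 52.4% in late-numbered miRNAs and 45.5% in the others. At least 80% GC was found in 6 members and in 1 lower-numbered miRNA. A snoRNA or scaRNA of GENCODE M21 held the sequence, over at least 20 bases or the whole miRNA, for 21 members (13.2%) and for 5 lower-numbered miRNAs (0.901%).

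By position, the 159 were sorted into 5 classes. The first held the 4 rows opposite an older miRNA (miR-1187 by sequence match alone), and the second the 21 rows within a snoRNA or scaRNA. Another 6 rows were present in 20 or more annotated genes each, 122 were found in 1 to 19 genes, mostly their own hairpin or its host, and 6 were found in no annotated transcript. Among the 22 miRNAs of at least 10 TPM these classes had 2, 11, 0, 6 and 3 members. Thus 11 of the 22 abundant late-numbered miRNAs lay inside a snoRNA or scaRNA.

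With a difference of 2-fold on the TPM + 1 scale as the rule, 4 of the 22 miRNAs (18.2%) were higher in TAMs, where 24.2% of all 264 miRNAs of at least 10 TPM passed the same rule. Another 10 of the 22 (45.5%) were lower in TAMs, where 32.6% of all 264 were. The remaining 8 lay within 2-fold. The median log2 ratio was -0.32 over the 22 and -0.36 over all 264, and it was -0.35 over the 240 with lower numbers. These values depend on the total used for scaling. When the miRNA reads outside the top 10 of either library served as totals (reduced totals), every ratio was multiplied by 1.41 and the median of all miRNAs shifted by 0.48 on the log2 scale. With the reduced totals 25 late-numbered miRNAs reached 10 TPM, of which 10 were higher, where 33.8% of all 269 were, and 4 were lower, where 19.7% of all were. Their median log2 ratio was then 0.43, and that of all 269 was 0.20. Of the late-numbered miRNAs past 2-fold, 71.4% were higher with the reduced totals and 28.6% with the deposited totals. Over all miRNAs, 91 were higher and 53 lower with the reduced totals, and 64 and 86 with the deposited totals.

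**Figure D2:**
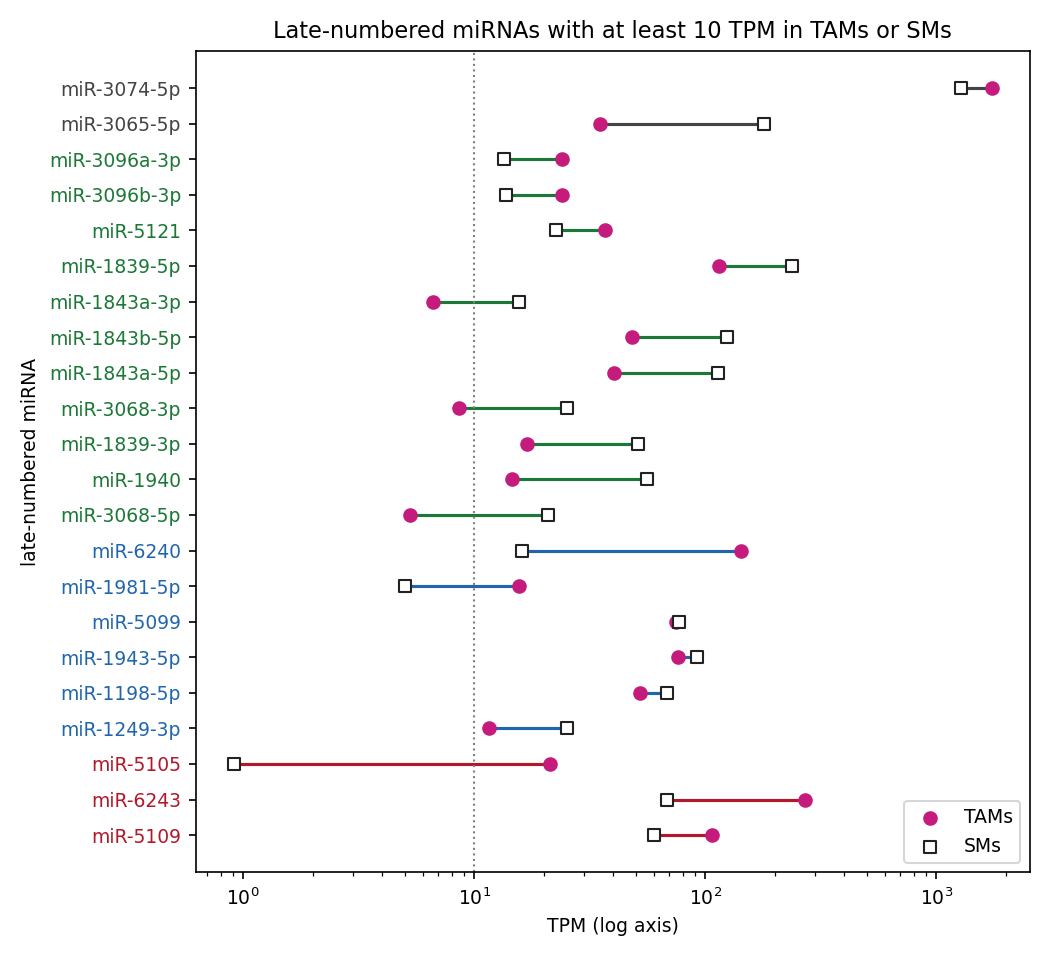
Level in TPM, on a log axis, of the 22 late-numbered miRNAs with at least 10 TPM (dotted line) in TAMs (filled circles) or SMs (open squares), 1 library each. Name colors give the class by position: opposite an older miRNA, within a snoRNA or scaRNA, other annotated match, and no annotated match; miR-3074-5p stands far above the rest, at 1740 TPM in TAMs and 1279 in SMs.

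The most abundant of the class opposite an older miRNA, and of all late-numbered miRNAs, was miR-3074-5p. It had 23189 reads in TAMs and 19725 in SMs, that is 1740 TPM and 1279 TPM, a ratio of 1.36 (1.34 to 1.39). It ranked 31 among all miRNAs of TAMs and 48 among those of SMs. Its hairpin genes lie on the other strand of the genes of miR-24, a widely expressed miRNA of the clusters with miR-23 and miR-27. On GRCm38, Mir3074-2 (chr8:84208825-84208907, minus strand) lies within Mir24-2, and Mir3074-1 (chr13:63301199-63301283, minus strand), in an intron of Fancc, a gene of the Fanconi anemia DNA repair pathway, spans Mir24-1. miR-24-3p had 23231 reads in TAMs and 19803 in SMs. The counts of the pair differed by 42 reads in TAMs and 78 in SMs, or 0.181% and 0.394% of the larger count. Reads of miR-24-3p and of miR-3074-5p cannot be told apart in such counts, and the values of miR-3074-5p are marked as shared. The other arm of the Mir24-2 hairpin, miR-24-2-5p, had 1322 reads in TAMs and 2714 in SMs, a ratio of 0.564 (0.528 to 0.602), on the other side of 1 from the shared arm.

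The same held for miR-3065-5p, whose hairpin Mir3065 (chr11:120014767-120014853, plus strand) lies opposite Mir338 in an intron of Aatk, a kinase gene transcribed from the minus strand and known from neurons. miR-3065-5p had 469 reads in TAMs and 2776 in SMs, and miR-338-3p had exactly the same 469 and 2776. Its level was 35.2 TPM in TAMs, against 180 TPM in SMs, a ratio of 0.196 (0.177 to 0.216), the lowest among the 22. The other arm of the miR-338 hairpin, miR-338-5p, which matched no late-numbered row, had 91 reads in TAMs and 327 in SMs, a ratio of 0.322 (0.252 to 0.408). The unshared arm of this hairpin thus lay on the same side of 1 as the shared one, unlike that of miR-24.

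The other rows opposite an older miRNA were rare. miR-3074-1-3p had 17 reads in TAMs and 37 in SMs, and miR-24-1-5p, which it matches over 20 bases, had 27 and 94, so these counts were not within 10% of each other. miR-1187 had 1 read in TAMs and 0 in SMs. It matched miR-466f-3p, with 7 reads in TAMs and 18 in SMs, as reverse complement over 16 bases, and no overlap of its hairpin with an older one was found. Among the left-out numbers, miR-3107-5p had 17678 reads in TAMs and 81321 in SMs, close to the 17892 and 82588 of miR-486-5p, known from erythroid cells. Counting the left-out rows as members would have given shares of 1.03% in TAMs and 2.02% in SMs, with the order of the groups turned round.

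**Figure D3:**
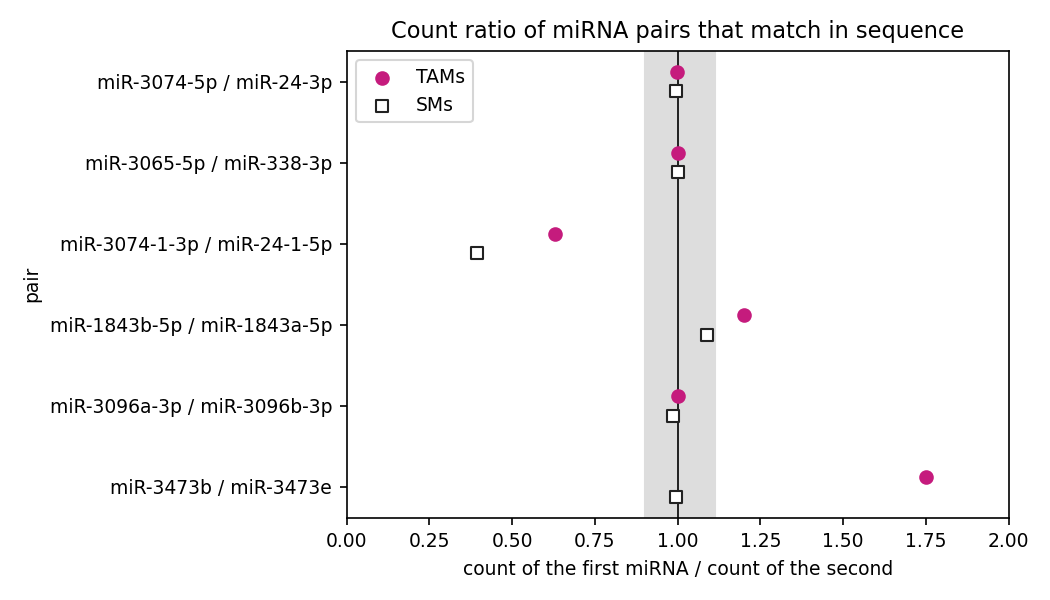
Count of the first miRNA of each pair divided by the count of the second, in TAMs (filled circles) and SMs (open squares), for pairs that match over 18 to 21 bases; the shaded band marks counts within 10% of each other. The ratio is 1 for miR-3065-5p with miR-338-3p and next to 1 for miR-3074-5p with miR-24-3p and for the miR-3096 pair, while miR-3074-1-3p falls short of miR-24-1-5p in both libraries.

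Members within snoRNA or scaRNA genes formed the class with the most rows lower in TAMs. Of the 11 at 10 TPM or more, 0 were at least 2-fold higher, 8 were lower and 3 lay within 2-fold, where 24.2% of all 264 miRNAs were higher and 32.6% lower. The median log2 ratio of the 11 was -1.34. All 21 rows together held 4696 reads in TAMs, 11.7% of the late-numbered reads, and 10960 reads in SMs, 26.3%. The ratio of their summed TPM was 0.496 (0.479 to 0.513). There were 8 ratios below 1 and 3 above 1 under each scaling tried, but fewer of the 11 passed 2-fold. With TMM and with DESeq2 size factors 7 were lower and 0 higher, where 29.9% of all 264 miRNAs were lower and 24.6% higher. With the reduced totals 3 were lower and 3 higher, where 20.1% of all were lower and 33.0% higher. The 8 rows come from only 4 miRNA numbers, and arms of 1 hairpin are not independent.

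miR-1839, whose hairpin lies in a gene annotated as scaRNA on chromosome 7 within the long noncoding RNA 2900076A07Rik, gave both arms. miR-1839-5p had 1523 reads (114 TPM) in TAMs and 3650 reads (237 TPM) in SMs, a ratio of 0.483 (0.455 to 0.513). miR-1839-3p had 225 reads (16.9 TPM) in TAMs and 788 reads (51.1 TPM) in SMs, a ratio of 0.330 (0.284 to 0.384). Both arms were thus lower in TAMs, the 3p arm by more.

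The miR-1843 miRNAs lie in the scaRNA genes Scarna3a and Scarna3b, which sit in introns of ubiquitin ligase genes. Scarna3b is in Dcaf5, which codes for a substrate receptor of a cullin ligase, on chromosome 12, and Scarna3a is in Cop1 on chromosome 1. miR-1843b-5p had 644 reads (48.3 TPM) in TAMs and 1913 reads (124 TPM) in SMs, a ratio of 0.390 (0.356 to 0.426). miR-1843a-5p had 537 reads (40.3 TPM) in TAMs and 1760 reads (114 TPM) in SMs, a ratio of 0.353 (0.320 to 0.389). miR-1843a and miR-1843b share 20 bases at this arm, offset by 1 base, so their seeds differ, and part of their reads may be counted for both. The opposite arm miR-1843a-3p was also lower, with 88 reads in TAMs and 242 in SMs, a ratio of 0.421 (0.326 to 0.539).

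miR-3068 lies in a snoRNA gene in an intron of Alkbh1, which codes for a nucleic acid demethylase. miR-3068-5p had 70 reads (5.25 TPM) in TAMs and 323 reads (20.9 TPM) in SMs, a ratio of 0.251 (0.191 to 0.326). miR-3068-3p had 115 reads (8.63 TPM) in TAMs and 390 reads (25.3 TPM) in SMs, a ratio of 0.341 (0.275 to 0.421). miR-1940, with 26 of its 27 bases in Snora47 on chromosome 13, had 194 reads (14.6 TPM) in TAMs and 864 reads (56.0 TPM) in SMs, a ratio of 0.260 (0.221 to 0.304). miR-3068-5p and miR-1940 had the lowest ratios of the class.

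The 3 rows within 2-fold were the ones in snoRNAs of the Snord kind, whose members carry C and D boxes and guide methylation. miR-5121 lies in Snord33, in the gene of the ribosomal protein Rpl13a, and had 489 reads (36.7 TPM) in TAMs and 347 reads (22.5 TPM) in SMs, a ratio of 1.63 (1.42 to 1.88). miR-3096a-3p had 318 reads (23.9 TPM) in TAMs and 208 reads (13.5 TPM) in SMs, a ratio of 1.77 (1.48 to 2.12). miR-3096b-3p had 318 and 211 reads, and since its whole sequence is contained in that of miR-3096a-3p these are marked as shared reads. miR-3096a and miR-3096b match Snord93. All 3 ratios lay above 1, on the other side from the 8 rows above, though with the shared reads they amount to 2 separate measurements.

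**Figure D4:**
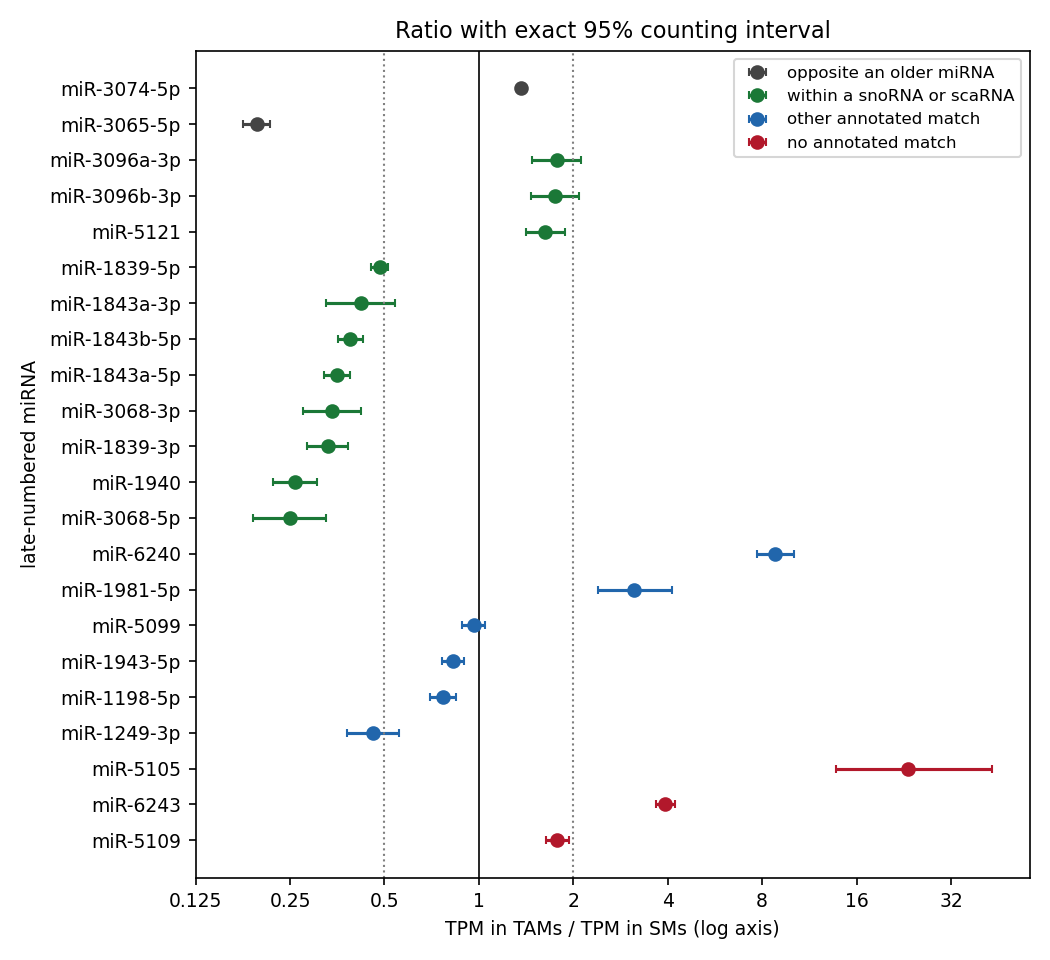
TPM in TAMs divided by TPM in SMs, on a log axis, of the 22 late-numbered miRNAs of at least 10 TPM, with exact 95% intervals that cover counting error only; dotted lines mark 2-fold differences, and colors give the class by position. Of the 11 rows within a snoRNA or scaRNA, 8 lie below 0.5, and the highest ratios are those of miR-5105, miR-6240 and miR-6243.

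The largest ratios belonged to miRNAs outside these classes. The 3 abundant rows whose sequence was in no annotated transcript, miR-6243, miR-5109 and miR-5105, were all higher in TAMs. With the deposited totals 2 of the 3 passed 2-fold, where 24.2% of all 264 miRNAs were higher by the same rule. With the reduced totals, which multiply every ratio by 1.41, all 3 passed it, where 33.0% of all 264 were higher. Together the 6 rows of the class held 5304 reads in TAMs and 2029 in SMs, with a ratio of the summed TPM of 3.03 (2.87 to 3.19). The class also holds miR-5115, which is listed below among miRNAs that resemble tRNA or rRNA. Sequences of rRNA or tRNA outside the GENCODE M21 transcripts were not searched for any member. miR-6243 was the second most abundant late-numbered miRNA of TAMs, with 3586 reads (269 TPM) in TAMs and 1058 reads (68.6 TPM) in SMs, a ratio of 3.92 (3.66 to 4.21). miR-5109 had 1419 reads (106 TPM) in TAMs and 923 reads (59.8 TPM) in SMs, a ratio of 1.78 (1.64 to 1.94). miR-5105 had 283 reads (21.2 TPM) in TAMs and 14 reads (0.908 TPM) in SMs, a ratio of 23.4 (13.7 to 43.3), the highest of the 22.

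miR-5105 consists of G and C at 90.0% of its bases. Of the other members of at least 80% GC, miR-5126, with no A or T at all, had 116 reads in TAMs and 38 in SMs (ratio 3.53, 2.43 to 5.24). miR-6538 had 20 and 7 (ratio 3.31, 1.34 to 9.26), while miR-5122 had 9 reads in TAMs and 36 in SMs (ratio 0.289, 0.123 to 0.612). The last ones of this kind, miR-3077-5p and miR-5627-5p, had 4 and 1 reads in TAMs and 0 in SMs. Members of high GC content thus did not all lie on 1 side.

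The 6 abundant members with their own annotated match were 2 higher, 1 lower and 3 within 2-fold. Over all 264 miRNAs of at least 10 TPM, 24.2% were higher and 32.6% lower. miR-6240, in a hairpin between genes on chromosome 5, had 1896 reads (142 TPM) in TAMs and 249 reads (16.1 TPM) in SMs, a ratio of 8.81 (7.72 to 10.1). The 22 abundant members had 22 different seeds, and miR-6240 was the only 1 of them that shared its seed, CAAAGCA, with a lower-numbered miRNA, miR-330-3p, which had 6.83 TPM in TAMs, against 3.83 TPM in SMs. miR-1981-5p, a mirtron candidate in an intron of Marc2, the gene of a mitochondrial reductase, had 208 reads (15.6 TPM) in TAMs and 77 reads (4.99 TPM) in SMs, a ratio of 3.13 (2.40 to 4.12). Its other arm miR-1981-3p did not follow, with 39 reads in TAMs and 44 in SMs, a ratio of 1.03 (0.649 to 1.62).

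Near equal levels were 3 miRNAs. miR-5099 stood at 74.4 TPM in TAMs, against 77.4 TPM in SMs, a ratio of 0.961 (0.883 to 1.05). miR-1943-5p, in an intron of Tmem184b, had 1017 reads (76.3 TPM) in TAMs and 1421 reads (92.1 TPM) in SMs, a ratio of 0.828 (0.764 to 0.898). miR-1198-5p, in an intron of Gripap1 on the X chromosome, had 696 reads (52.2 TPM) in TAMs and 1049 reads (68.0 TPM) in SMs, a ratio of 0.768 (0.697 to 0.846). The direction of these differences hung on the scaling: 4 of the 6 ratios of the class were below 1 with the deposited totals, 3 with TMM or DESeq2 factors, and 1 with the reduced totals. miR-1249-3p, in an exon of 5031439G07Rik, had 155 reads (11.6 TPM) in TAMs and 390 reads (25.3 TPM) in SMs, a ratio of 0.460 (0.379 to 0.556). On the TPM + 1 scale it passed 2-fold with the deposited totals only, while its ratio of TPM was 0.488 with TMM and 0.482 with DESeq2 factors.

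Below 10 TPM the differences rest on fewer reads. Of the 41 members that peaked between 1 and 10 TPM, 4 (9.76%) were past 2-fold upwards in TAMs, where 20.4% of all 186 miRNAs in that band were, and 6 (14.6%) were lower by 2-fold, where 15.6% of all were. The higher ones were miR-6539 (130 reads in TAMs, 46 in SMs), miR-5126, miR-3057-5p (78 and 22) and miR-5114 (44 and 13). Of these, miR-3057-5p lies in an exon of Apba3, and miR-5114 in an exon of the fatty acid desaturase gene Scd2. miR-6539 shares its seed, CACAGTG, with miR-128-3p, which had 44.1 TPM in TAMs, against 46.7 TPM in SMs.

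Of the 6 lower ones, miR-3473e and miR-3473b stood furthest down by reads. miR-3473e had 12 reads in TAMs and 148 in SMs (ratio 0.0938, 0.0474 to 0.169), and miR-3473b had 21 and 147 (ratio 0.165, 0.0994 to 0.262). They share their seed, GGCTGGA, and 18 bases, and the sequence of miR-3473b is found in 743 annotated genes, so its reads cannot be assigned to 1 gene. miR-3470b, in 1068 annotated genes, had 99 reads in TAMs and 153 in SMs. miR-3084-3p of Snora19 and a like snoRNA gene (32 and 100 reads) and miR-1843b-3p of Scarna3a (24 and 71) were lower as well, as was miR-3082-3p (11 and 44), in an exon of the ubiquitin ligase gene Stub1.

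miR-5120 was the last of the lower ones, with 1 read in TAMs and 19 in SMs (ratio 0.0609, 0.00147 to 0.383). It lies in an intron of Pax5, the transcription factor that defines B cells. miR-6537-3p, in an intron of Pou2f2, another B cell transcription factor gene, had 6 reads in TAMs and 21 in SMs (ratio 0.331, 0.109 to 0.847). On the TPM + 1 scale miR-6537-3p did not pass 2-fold, with a log2 ratio of -0.70. Both miRNAs were picked out after their values were seen. The lymphocyte miRNAs miR-150-5p and miR-342-3p summed to 1160 TPM in TAMs, against 3989 TPM in SMs. Their part in these differences was not tested.

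Arm use could be compared for 10 of the 33 hairpins with both arms in the table, those with at least 50 reads in each library. For miR-1839 the 5p arm gave 87.1% of the reads in TAMs (exact 95% interval 85.5% to 88.7%) and 82.2% in SMs (81.1% to 83.4%). For miR-1981 it gave 84.2% in TAMs (79.1% to 88.5%) and 63.6% in SMs (54.4% to 72.2%). These were the pairs of intervals that stood apart. The 5p arm of miR-1843b gave 96.4% in both, that of miR-1943 99.9% in TAMs and 99.6% in SMs, and that of miR-3068 37.8% in TAMs and 45.3% in SMs, with overlapping intervals. In miR-3096a and miR-3096b the 3p arm led in both libraries.

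**Figure D5:**
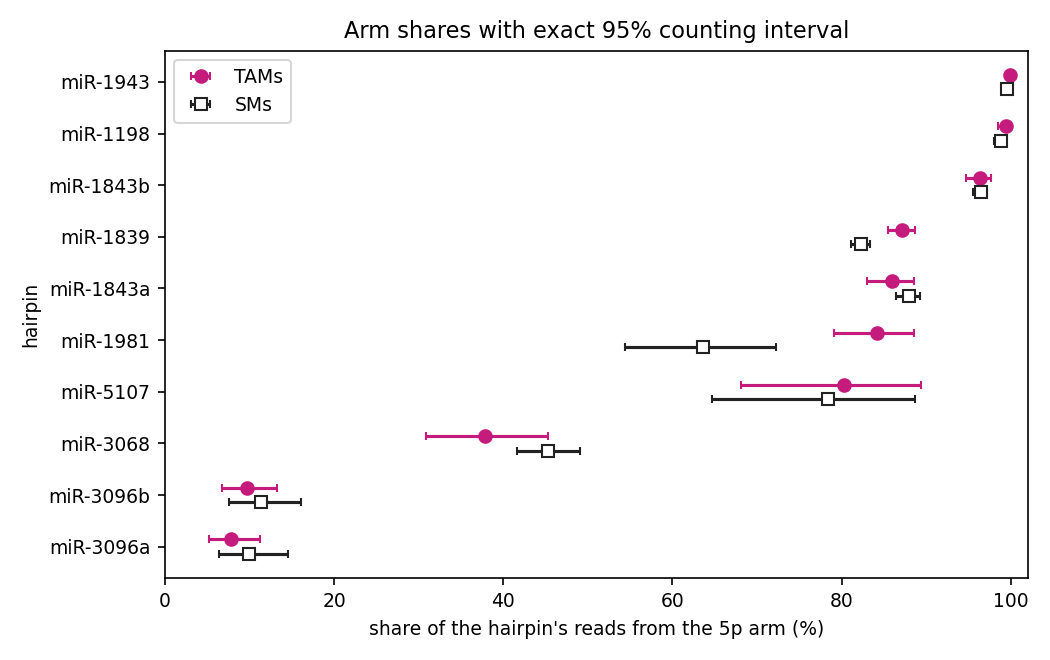
Share of reads from the 5p arm, in percent, for the 10 late-numbered hairpins with at least 50 reads in each library, with exact 95% intervals, in TAMs (filled circles) and SMs (open squares). The intervals of TAMs and SMs stand apart for miR-1839 and miR-1981.

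Among lists of known kinds, a list of 14 numbers that are also used in human, which does not hold every such number, had 6 rows, from 4 numbers. Of these, 3 reached 10 TPM, 0 of them were higher in TAMs by 2-fold and 2 were lower, miR-3065-5p and miR-1249-3p. Over all 264 miRNAs of at least 10 TPM, 24.2% were higher and 32.6% lower. The counts of miR-3065-5p equal those of miR-338-3p, and miR-1249-3p passed 2-fold with the deposited totals only. miR-1306, which lies in an exon of Dgcr8, the partner of Drosha, had 15 reads of the 5p arm in TAMs and 20 in SMs, and 3 reads of the 3p arm in each. The mirtron list of 3 numbers was present with miR-1981 alone. The H/ACA snoRNA list held only 1 number, that of miR-1839, and was present with both of its arms. Neither list need hold every miRNA of its kind, and other members matched snoRNA genes as described above. A fixed list of 4 numbers of miRNAs that resemble tRNA or rRNA, which need not hold every such miRNA, had 2 rows. miR-1983 had 116 reads in TAMs and 99 in SMs (ratio 1.36, 1.03 to 1.79), and miR-5115 had 1 read in TAMs and 0 in SMs. No late-numbered member of the Dlk1-Dio3 or of the X-linked Htr2c list was among the rows analysed.

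miRNAs that mark cell types differed between the libraries alongside these values. The myeloid and leukocyte miRNAs miR-223-3p, miR-142-3p and miR-142-5p, which macrophages express, were present in both but were all lower in TAMs, 7715 TPM summed in TAMs against 34457 TPM in SMs. The 7 epithelial miRNAs were all higher in TAMs, 1897 TPM against 284 TPM, with miR-205-5p at 384 reads in TAMs and 1 in SMs. The 3 red blood cell miRNAs were all lower in TAMs, 1376 TPM against 5991 TPM, and so were the 2 lymphocyte miRNAs. Of 3 stromal miRNAs measured, 2 were higher, and the list summed to 2579 TPM in TAMs, against 2436 TPM in SMs. The part of other cells in the late-numbered differences was not tested, and fewer cells of a type cannot be told apart from less RNA per cell.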

How the data were processed

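Small RNA libraries of TAMs and SMs, 1 per group by the labels, were made with a TruSeq small RNA kit. The authors deposited a read count per mature miRNA and a TPM, which is the count over a total per library of 13324721 reads (TAMs) and 15422872 reads (SMs), given per 1000000 reads and not corrected for length. 1 read thus counted as 0.0750 TPM (TAMs) or 0.0648 TPM (SMs), and the miRNA counts were 55.0% and 65.5% of these totals. The submitters' processing notes name Bowtie2. Its version, the genome build, the miRBase release and whether counting used strand are stated in no source used here. The table's ratios, p-values and marks of the authors' own comparison were not used, and 2 lines were not analysed here.

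Ratios of TPM have exact conditional binomial 95% intervals and shares have Clopper-Pearson intervals, for counting error only. Fold rules used log2(TPM + 1) in miRNAs of at least 10 TPM in either library, whose pseudocount of 1 TPM shrinks the differences of rare miRNAs. A count of 0 allows up to 3 counts (TAMs 0.225 TPM, SMs 0.195 TPM). Rows were taken as opposite an older miRNA when at least 16 bases matched as reverse complement or when their hairpins overlapped, and as sharing reads when counts lay within 10% in both libraries. Sequences were searched in GENCODE M21 transcripts (GRCm38), and positions are from GENCODE or RefSeq GRCm38.p6.

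miRNAs named are the 10 most abundant of each library, those of at least 100 TPM, the 5 largest and 5 smallest ratios, rows opposite an older miRNA, the 3 with most reads in 1 library only, and members of 6 lists: selected human namesakes, mirtrons, H/ACA snoRNA, tRNA- or rRNA-like, Dlk1-Dio3 and Htr2c. All other miRNAs named were chosen after their values were seen. Members and lists were chosen with earlier results of these data known. Scaling alternatives were TMM (edgeR 4.0.16), size factors (DESeq2 1.42.0, R 4.3.3) and reduced totals, the miRNA reads outside the top 10 of either library. Filters, pseudocounts, fold rules, denominators and membership were also varied. Calculations ran in Python 3.11.15 (numpy 2.4.6, pandas 2.3.3, scipy 1.17.1, matplotlib 3.10.9) and were tested on simulated data.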

Additional observations from a re-analysis of the deposited data

How the results depend on the processing

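The share of miRNA reads, 0.547% in TAMs and 0.412% in SMs, was 0.224% and 0.189% without rows opposite an older miRNA, 0.231% and 0.217% without miR-3074-5p, 0.301% and 0.270% over the total behind the TPM, and 1.03% and 2.02% with miR-1193 and miR-3107 included. Among these alternatives the order of the groups turned round only in the last. Without rows opposite an older miRNA and over the total behind the TPM, the sums were 1234 TPM in TAMs and 1242 TPM in SMs. Their ratio was 0.993 (0.973 to 1.01). The 22 miRNAs of at least 10 TPM became 63 at 1 TPM and 8 at 100 TPM. The 4 higher miRNAs became 10 with the reduced totals, 8 at 1 TPM, 8 with no filter, 2 at 100 TPM, 8 at 1.5-fold and 2 at 4-fold. The 10 lower miRNAs became 4 with those totals, 16 at 1 TPM, 16 with no filter, 4 at 100 TPM, 6 with a pseudocount of 10 TPM and 1 at 4-fold. The counts are out of 22 rows, or 25 with the reduced totals, 63 at 1 TPM, 159 with no filter and 8 at 100 TPM. Over all miRNAs, 24.2% were higher and 32.6% lower with the deposited totals, and 33.8% and 19.7% with the reduced totals. Shares over all miRNAs were not computed for these other filters, pseudocounts and fold rules, so those counts cannot be read as particular to late-numbered miRNAs. In the band between 1 and 10 TPM, 20.4% of all 186 miRNAs were higher and 15.6% lower, against 9.76% and 14.6% of the 41 late-numbered ones. The median log2 ratio of -0.32 was -0.18 with TMM, 0.43 with the reduced totals (which shift the median of all miRNAs by 0.48), -0.11 at 1 TPM, -0.055 with no filter and -0.71 with the left-out numbers. Leaving out rows opposite an older miRNA and rows within a snoRNA or scaRNA, an alternative chosen after seeing the data, left 1 lower miRNA and a median of 0.82 over 9 miRNAs. Among those past 2-fold, the higher ones made up 28.6% with the deposited totals and 71.4% with the reduced totals. Over all miRNAs, 64 were higher and 86 lower with the deposited totals, and 91 and 53 with the reduced totals. With the deposited totals the higher ones were 44.4% of those past 1.5-fold, and 66.7% of those past 4-fold (2 higher and 1 lower). Of 66 alternative values of single ratios, for the miRNAs named by rule that had reads in both libraries, 19 lay outside the counting interval. A called direction could not turn, because no scaling multiplied the ratios by more than 1.41. Ratios that were not called could turn. With the reduced totals miR-1943-5p went to 1.17, miR-1198-5p to 1.08, miR-5099 to 1.35 and miR-1306-5p to 1.22, all from below 1. No paired analysis was possible because TAMs and SMs were sequenced once each, so that no replicate could be left out either.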
